A study of Mus musculus with 48 samples.

Results

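The mouse mitochondrial genome carries 37 annotated genes, and this report follows all of them through RNA-seq and ribosome profiling (Ribo-seq) libraries of mouse embryonic stem cells (mESCs). The members were the gene identifiers of the deposited tables that the annotation places on chrM, 37 of 55335 identifiers in all. They comprised 13 protein-coding genes (mRNAs), 2 ribosomal RNA (rRNA) genes and 22 transfer RNA (tRNA) genes. The study asked what the nuclear protein NRDE2 and the splicing-associated protein CCDC174 do for nuclear gene expression, and compared cells lacking or mutated in them. Here 28 RNA-seq libraries in 14 groups and 4 Ribo-seq libraries in 2 groups were used, with 2 libraries in every group.

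All cells were male mESCs of mixed 129 and C57BL/6 background with a tamoxifen-inducible Cre-ERT2 allele at Rosa26, grown on gelatin in serum-containing medium with LIF and 2 kinase inhibitors. WT stood for the uninduced conditional *Nrde2* line, and *Nrde2*-KO for that line after 100 nM 4-hydroxytamoxifen (4OHT) for 4 days. *Nrde2*Δ*200* cells carried an NRDE2 without its N-terminal 200 residues, and *Nrde2-D174R* cells carried a point mutation in the stretch that contacts MTREX, the RNA helicase of the nuclear exosome. *Mtrex*-WT was an uninduced conditional *Mtrex* line, and *Mtrex*-KO was the same line after 100 nM 4OHT for 3 days. In the *Ccdc174* line the endogenous gene was fused to the FKBP12F36V degron, in *Ccdc174*-WT without and in *Ccdc174-dTAG* with 500 nM dTAG-13, the compound that triggers degradation, for 24 hours. The second *Nrde2* experiment and the *Ccdc174* experiment each had libraries with and without cycloheximide (CHX, 0.1 mg/ml for 4 hours), an inhibitor of cytosolic ribosomes. Ribo-seq was made from WT and *Nrde2*-KO cells, with 4OHT for 4 days according to the labels. Nothing in the labels says whether 2 libraries of a group came from separate cultures, so every p-value measures only the spread between these libraries, which may be technical. No control library received 4OHT or dTAG-13, so exposure to either compound cannot be told apart from the loss it brings about. The numbers of mitochondria and of RNA copies per mitochondrion cannot be told apart in bulk libraries, and neither can fewer cells of a type and less RNA per cell.

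The mitochondrial genome encodes subunits of respiratory complexes I, III and IV and of the ATP synthase, together with the rRNAs and tRNAs of a separate, bacterial-type ribosome. It is transcribed as long polycistronic RNAs from both strands, and the tRNAs that lie between most genes are cut out to release the individual RNAs. Transcription, processing and translation take place inside the organelle with nuclear-encoded proteins, so mitochondrial mRNAs meet neither the nuclear exosome nor cytosolic ribosomes in the usual course of their life. Mitochondrial ribosomes are not inhibited by CHX.

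Stretches of the mitochondrial genome have also been copied into the nuclear chromosomes, and only uniquely mapping reads were counted by the authors, so each member's sequence was searched for in the nuclear chromosomes. In the GRCm38 reference a block of chromosome 1, chr1:24611535-24616184 on the minus strand, matched chrM:6394-11042. Over its first 3402 bases the copy differed from the mitochondrial sequence at a single position, T9461C, counted along chrM with the mitochondrial base first. The start of *mt-Co2*, which encodes subunit 2 of cytochrome c oxidase, was identical in both places, with the start codon in capitals. The start of *mt-Nd3*, which encodes a complex I subunit, held the only difference, at position 3 of the gene. The stretch printed for it begins within the tRNA gene *mt-Tg*, which ends at chrM:9458, and *mt-Nd3* begins at chrM:9459. The differing base is in capitals in both sequences:
mt-Co2, chrM:7013-7072, plus strand: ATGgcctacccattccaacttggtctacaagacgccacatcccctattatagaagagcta
chromosome 1 copy, chr1:24615506-24615565, minus strand: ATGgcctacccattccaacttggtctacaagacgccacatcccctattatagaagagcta
mt-Nd3, chrM:9431-9490, plus strand: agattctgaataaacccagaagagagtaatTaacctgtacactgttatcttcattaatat
chromosome 1 copy, chr1:24613088-24613147, minus strand: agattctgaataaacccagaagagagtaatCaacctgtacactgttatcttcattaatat

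Every 50-base window of each member, the length of the RNA-seq reads, was searched on both strands of the nuclear reference. All windows of *mt-Co2*, *mt-Atp8*, *mt-Atp6*, *mt-Co3* and *mt-Nd4l* had an exact nuclear copy, as had 296 of the 299 windows of *mt-Nd3*, of which 3 at its start were unique. These 6 mRNAs, which encode 2 cytochrome c oxidase subunits, both mitochondrial ATP synthase subunits and 2 complex I subunits, were listed at 0 reads in all 32 libraries. Levels are given as CPM, which are read counts scaled to a common library total. A count of 0 was given a limit of 3 reads, scaled to the reads in genes of each library. This allowed up to 0.0827 to 0.105 CPM in the RNA-seq libraries and up to 0.596 to 0.863 CPM in the shallower Ribo-seq libraries. The deposited CPM rest on a larger total, on which these limits are lower. On that scale 3 Ribo-seq reads were 0.368 CPM in WT replicate 1 and 0.530 CPM in *Nrde2*-KO replicate 1. For the 5 mRNAs without a unique window such a 0 gives no level, and for *mt-Nd3* it covers only the 3 windows at its start. Of the other mRNAs, 62.2% of the windows of *mt-Nd4*, 51.1% of *mt-Co1*, 8.29% of *mt-Nd2* and 7.61% of *mt-Nd5* had a copy, and none of *mt-Nd1*, *mt-Nd6* and *mt-Cytb*. In all, 14 members had at least 99% of their windows copied, 5 mRNAs and 9 tRNAs, and 14 members had none. Of these 9 tRNAs, 3 had RNA-seq reads (*mt-Tw*, *mt-Tn* and *mt-Te*, with 142 for *mt-Tw* and 273 for *mt-Tn* over all libraries), and of the 14 members without a copied window, only *mt-Tf* was at 0 in all RNA-seq libraries and no member in all Ribo-seq libraries.

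**Figure D1:**
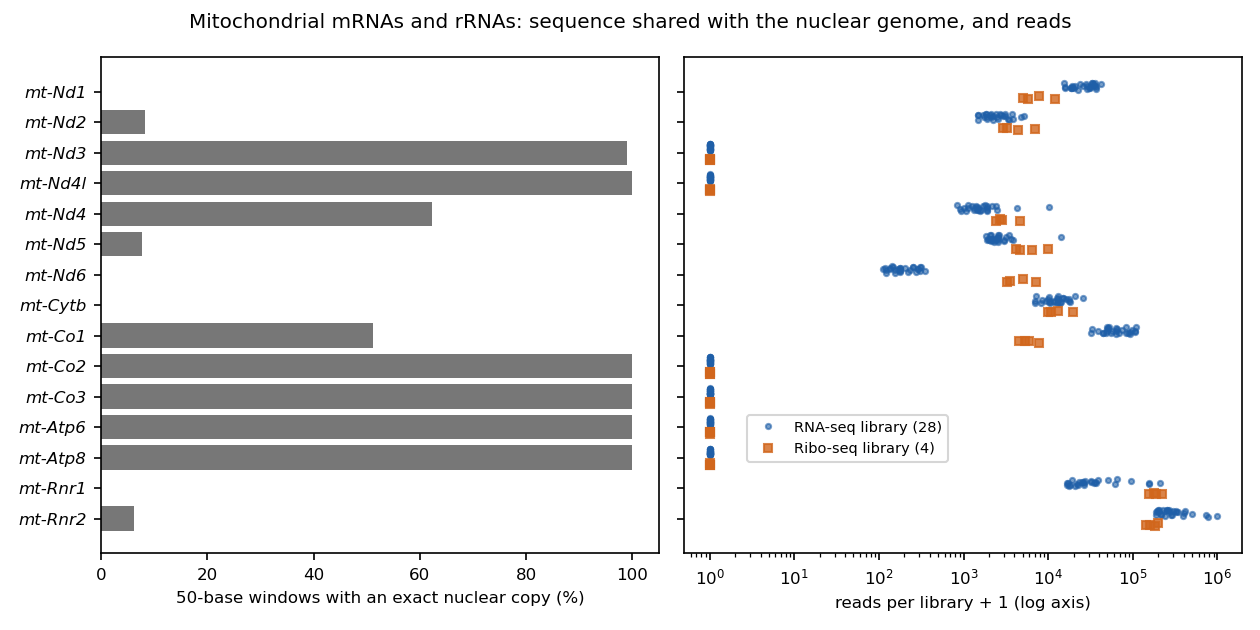
For the 13 mitochondrial mRNAs and 2 rRNAs, the plot shows the percentage of 50-base windows with an exact nuclear copy and the reads per library plus 1 on a log axis, with a point for each library. *mt-Nd3*, with 3 unique windows, and the 5 mRNAs with none lie at 0 reads in every library, whereas *mt-Nd1*, with no copied window, had 15499 to 42437 RNA-seq reads.

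Annotated genes inside the chromosome 1 copy were examined for the reads of the missing members. Of 7 such genes, the pseudogene *Gm28438*, which lies in the stretch matching *mt-Nd3*, at chr1:24612775-24613119, held 72 to 103 reads in each Ribo-seq library. Its Ribo-seq reads were 88 and 72 in WT and 103 and 86 in *Nrde2*-KO, while *mt-Nd3* had 0 in the same libraries. In RNA-seq it held 3 to 16 reads per library, 197 in all, and the other 6 genes together held 13 RNA-seq reads and 0 Ribo-seq reads. Reads of this gene from the nuclear copy and from a mitochondrial molecule carrying the same base as the copy cannot be told apart, because the files hold counts and no read sequences.

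The libraries were deep for the members that could be counted. Reads in genes numbered 28683644 to 36272309 per RNA-seq library and 3475051 to 5035940 per Ribo-seq library, and the members held 0.742 to 4.77% (median 1.30%) of them in RNA-seq and 8.34 to 9.75% (median 9.03%) in Ribo-seq. The *Mtrex*-KO replicate 1 library had 72.1% of its total reads in genes, the lowest of all RNA-seq libraries. Embryonic stem cell markers summed to 2736 to 4348 normalised CPM in the 20 libraries without CHX, and markers of fibroblast feeders to 1.78 to 3.89. The targeted *Nrde2* RNA was at 18.2 and 19.4 normalised CPM in *Nrde2*-KO against 39.97 and 38.6 in WT, and *Mtrex* at 43.4 and 39.5 in *Mtrex*-KO against 114 and 107 in *Mtrex*-WT. Under CHX the *Nrde2* RNA gave no such check, since its mean was 277 normalised CPM in the libraries labelled *Nrde2*-KO and 261 in WT. The dTAG lines lose protein, so their *Ccdc174* RNA checks nothing.

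Among the 7 measurable mRNAs, *mt-Co1*, which encodes the catalytic subunit of cytochrome c oxidase, had by far the most RNA-seq reads. It had 31992 to 108366 reads per library (median 63430.5), followed by *mt-Nd1* (15499 to 42437, median 28563.5) and *mt-Cytb* (6982 to 25625, median 12625). The complex I mRNAs *mt-Nd5* (1828 to 14025, median 2456), *mt-Nd2* (1468 to 5255, median 2331.5) and *mt-Nd4* (826 to 10102, median 1488) were lower. *mt-Nd6*, the only mRNA encoded on the light strand, had 112 to 351 reads (median 177.5), so that its values carry the largest counting error of the mRNAs. The rRNAs had 16737 to 211676 reads for *mt-Rnr1* and 186288 to 979530 for *mt-Rnr2*, in libraries made after depletion of rRNA. The ratio of *mt-Rnr2* to *mt-Rnr1* reads ran from 4.63 to 11.96 over the RNA-seq libraries.

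To set genes against each other, levels were expressed as CPM per 1000 unique windows, which are start positions whose 50-base (RNA-seq) or 35-base (Ribo-seq) sequence occurs nowhere else. On this per-length scale the median RNA-seq levels were 2308 for *mt-Co1*, 805 for *mt-Nd1*, 304 for *mt-Cytb*, 80.6 for *mt-Nd4*, 66.8 for *mt-Nd2*, 39.6 for *mt-Nd5* and 10.1 for *mt-Nd6*. The Ribo-seq levels had a different order, with 1613 for *mt-Cytb*, 1401 for *mt-Co1*, 1317 for *mt-Nd6*, 1026 for *mt-Nd1*, 823 for *mt-Nd4*, 609 for *mt-Nd2* and 507 for *mt-Nd5*. The highest of these medians was 229-fold the lowest in RNA-seq and 3.18-fold in Ribo-seq. Per length of the whole gene, copied windows included, these spans were 119.6-fold and 5.03-fold. The ranges of *mt-Nd4* and *mt-Nd2* overlapped in RNA-seq.

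**Figure D2:**
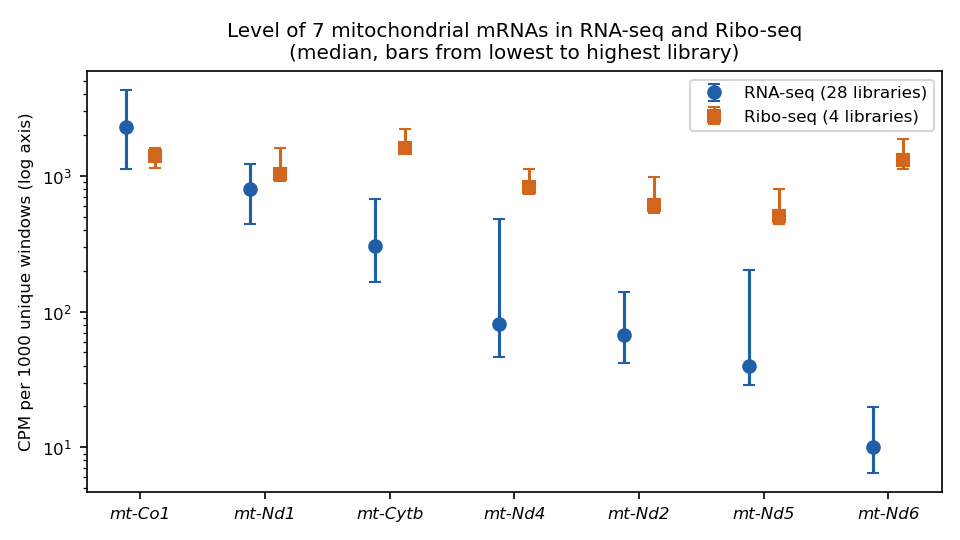
The plot gives CPM per 1000 unique windows on a log axis for the 7 measurable mRNAs, with the median and the range from the lowest to the highest library, over 28 RNA-seq and 4 Ribo-seq libraries. RNA-seq medians run from 10.1 (*mt-Nd6*) to 2308 (*mt-Co1*), and Ribo-seq medians from 507 (*mt-Nd5*) to 1613 (*mt-Cytb*).

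The gap between both assays was widest for *mt-Nd6*. In WT it made up 0.159% of the RNA-seq reads on the 7 mRNAs and 10.9% of the Ribo-seq reads on them, a 68.2-fold larger share. *mt-Co1* made up 59.8% of the RNA-seq reads and 11.7% of the Ribo-seq reads. The shares were read within each assay, and the assays differ in fragment length, nuclease treatment and rRNA depletion. Duplicate reads were collapsed in Ribo-seq, a step not described for RNA-seq. The part of these differences in the levels and shares of both assays was not tested. Because of them no test was made between levels of the assays.

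Of the tRNAs, 14 had any RNA-seq read and 16 any Ribo-seq read, and 6 were at 0 in all libraries. A whole RNA-seq library held 26 to 111 tRNA reads (median 48), and no tRNA had more than 31 reads in any library. The most frequent in RNA-seq was *mt-Tm*, the methionine tRNA, with 330 reads over 28 libraries. In Ribo-seq the tRNAs had 3017 to 4670 reads per library, with *mt-Ti* (4033), *mt-Tm* and *mt-Tl1* together holding 70.5% of them.

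Loss of MTREX went with higher levels of nearly all measurable mitochondrial RNAs. In *Mtrex*-KO cells 6 of the 7 mRNAs and both rRNAs were up-regulated (limma with Benjamini-Hochberg adjustment over 14889 genes, adjusted p below 0.01), where 27.7% of all tested genes were called up and 56% were called in all. The median log2 fold change of the 7 mRNAs was 1.45, against -0.02 over all genes tested. With the additional limit of a 2-fold change used in the study, 5 of the 7 remained above it, where 15.4% of all genes did. Fitted on the compared groups only, without the 2-fold limit, 4 of the 7 mRNAs were called, and the share of all genes in that fit is not given.

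Among the mRNAs, the 3 largest increases were in the complex I subunit *mt-Nd4*, the complex III subunit *mt-Cytb* and the complex I subunit *mt-Nd5*. For *mt-Nd4* the normalised CPM were 329 and 143 in *Mtrex*-KO against 26.3 and 22.5 in *Mtrex*-WT. Both knockout libraries lay far above both controls, but they differed from each other by more than the controls did. The log2 fold change was 3.15 ± 0.26 (SE, n = 2 per group, limma adjusted p = 1.33e-08). *mt-Cytb* was at 677 and 846 against 220 and 198, with a log2 fold change of 1.86 ± 0.21 (limma adjusted p = 5.17e-07). Here the 2 knockout libraries were close. *mt-Nd5* was at 457 and 127 against 78.9 and 69.9, with a log2 fold change of 1.69 ± 0.34 (limma adjusted p = 0.000269), and replicate 1 of *Mtrex*-KO carried much of it, since the log2 fold change was 0.78 without that library and 2.62 without replicate 2.

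The other complex I and IV mRNAs rose less. *mt-Nd2* was at 171 and 128 against 58.1 and 50.7 normalised CPM (log2 fold change 1.45), and *mt-Co1* at 2706 and 3576 against 1325 and 1297 (1.25). *mt-Nd1* was at 923 and 1183 against 670 and 613, with a log2 fold change of 0.70 ± 0.21 (limma adjusted p = 0.00593), a call that was lost without either control library, without replicate 2 of *Mtrex*-KO, and on the CPM as deposited, where the log2 fold change was 0.33. The groups were apart for these 3 genes, although *mt-Nd1* in *Mtrex*-KO replicate 1 was less far above its controls than in replicate 2. The share of all genes with groups apart in this comparison is not given. The light-strand mRNA *mt-Nd6* was at 10.3 and 5.91 against 7.55 and 6.26, where the groups overlapped and the log2 fold change was 0.18 ± 0.29 (limma adjusted p = 0.613). Over *mt-Nd1*, *mt-Nd6* and *mt-Cytb* alone, which share no 50-base window with the nuclear genome, the median was 0.70.

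The rRNAs followed, with *mt-Rnr1* at 5031 and 6986 normalised CPM in *Mtrex*-KO against 1616 and 959 (log2 fold change 2.25, limma adjusted p = 0.000403) and *mt-Rnr2* at 25246 and 32327 against 10479 and 7278 (1.71, limma adjusted p = 0.000291). The call of *mt-Rnr1* was lost without replicate 2 of *Mtrex*-WT (limma adjusted p = 0.0101). As a share of reads in genes, all members together made up 3.595 and 4.77% in *Mtrex*-KO against 1.71 and 1.23% in *Mtrex*-WT. The mRNAs alone made up 0.533 and 0.633% against 0.282 and 0.265%. Without *Mtrex*-KO replicate 1, the library with the lowest share of reads in genes, 6 mRNAs were still called.

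**Figure D3:**
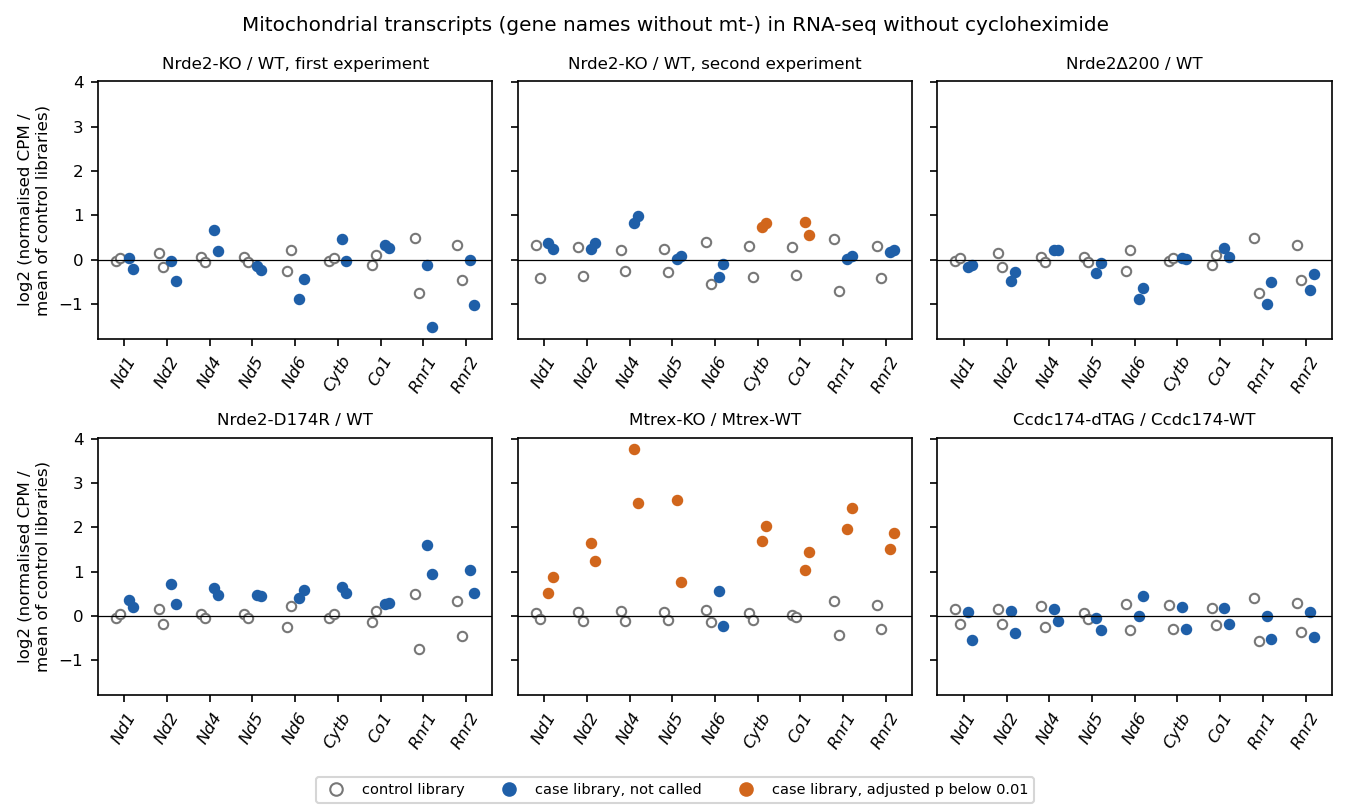
Each of the 6 panels shows one comparison without CHX, with the log2 of each mutant library's normalised CPM over the mean of its control libraries for the 7 mRNAs and 2 rRNAs, and called genes in orange. In *Mtrex*-KO all genes but *mt-Nd6* are called, with *mt-Nd4* highest at a log2 fold change of 3.15, and in *Nrde2*-KO of the first experiment none is.

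Markers of other cell states moved in the same *Mtrex*-KO libraries. Summed trophectoderm markers were at 427 and 466 normalised CPM against 55.7 and 90.9, and summed markers of the 2-cell-like state at 226 and 74.2 against 9.09 and 3.57. Summed embryonic stem cell markers were at 2736 and 3610 against 4007 and 4348, and no marker of these 3 lists was at 0 in both libraries of a group. Summed primitive endoderm markers were at 15.2 and 13.8 against 10.6 and 10.2, and fibroblast markers at 3.10 and 2.71 against 3.54 and 2.04, with 1 of 7 of the latter at 0 in both *Mtrex*-KO libraries and 3 in both *Mtrex*-WT libraries. Of the tested markers 4 of 5 for trophectoderm, 6 of 6 for the 2-cell-like state and 2 of 4 for primitive endoderm were called up, where 27.7% of all genes were. For embryonic stem cells 3 of 8 were called down, near the 28.2% of all genes called down. Of the 2 tested fibroblast markers 1 was called up and 1 down. The part of these states, of depth and of the share of reads in genes in the mitochondrial differences was not tested.

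Nuclear genes for the same organelle did not rise with the mitochondrial RNAs in *Mtrex*-KO. Of 70 tested nuclear genes for respiratory chain and ATP synthase subunits, 2 were up- and 44 down-regulated (median log2 fold change -0.49), where 28.2% of all genes were called down. The largest falls past the 2-fold limit were those of *Uqcrh* (-1.37) and *Atp5j2* (-1.31), which encode small subunits of complex III and the ATP synthase. Of 80 tested mitoribosomal protein genes, 1 rose and 44 fell, with *Mrpl34* at -1.43. Of 17 genes for mitochondrial transcription and replication 2 rose and 4 fell, of 31 for RNA processing and decay 2 rose and 10 fell, and of 17 translation factors 0 rose and 4 fell. Among 14 genes of the mitochondrial stress response 1 rose, *Ddit3* (1.84), and 7 fell, including the serine synthesis enzymes *Phgdh* (-3.04) and *Psat1* (-2.87).

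Loss of NRDE2 did not show the same rise in the first experiment. In *Nrde2*-KO 0 of 7 mRNAs and 0 of 2 rRNAs were called by limma, edgeR or DESeq2, where 18.3% of all genes were called by limma, and 0 of these 9 genes had an unadjusted p below 0.05, where 41.3% of all genes did. *mt-Co1* was at 2551 and 2424 normalised CPM against 1853 and 2197 in WT (log2 fold change 0.30), and *mt-Nd4* at 59.5 and 43.0 against 38.7 and 35.9 (0.44). Both knockout libraries lay above both controls for these genes. Groups of 2 libraries can lie apart without a change, and the share of all genes doing so here is not given. *mt-Nd6* was at 2.93 and 4.01 against 4.54 and 6.29 (-0.60), both below the controls. Of the 70 nuclear respiratory chain and ATP synthase genes, 1 was called up and 23 were called down, where 11.1% of all genes were called down.

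The difference between the *Mtrex*-KO and *Nrde2*-KO changes was tested directly. It was called for 5 of the 7 mRNAs and for both rRNAs, all larger in *Mtrex*-KO, where 17.2% of all genes were called in that direction and 31.3% in all. The log2 difference was 2.71 ± 0.37 for *mt-Nd4* (limma adjusted p = 1.84e-05), 1.88 ± 0.48 for *mt-Nd5* (limma adjusted p = 0.00397) and 1.70 ± 0.32 for *mt-Nd2* (limma adjusted p = 0.000313). The count of mRNAs fell to 3 when any library of WT or *Nrde2*-KO, or replicate 2 of *Mtrex*-WT, was left out. The 2 lines were separate and were induced for 3 and 4 days, so the line and the days of induction cannot be told apart from the gene lost.

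In the second *Nrde2* experiment 2 mRNAs were up-regulated, where 7.1% of all genes were called up and 18.5% in all. *mt-Cytb* was at 443 and 466 normalised CPM in *Nrde2*-KO against 326 and 203 in WT (log2 fold change 0.82 ± 0.21, limma adjusted p = 0.00679). *mt-Co1* was at 2213 and 1806 against 1480 and 956 (0.75 ± 0.19, limma adjusted p = 0.00592), and *mt-Nd4*, at 56.2 and 63.5 against 37.1 and 26.6, had the largest value without passing (0.92, limma adjusted p = 0.0138). For these 3 genes WT replicate 2 was the lowest library. Neither call held without WT replicate 2, without *Nrde2*-KO replicate 1 or without *Nrde2*-KO replicate 2. Between both experiments the knockout's change differed for 0 of 7 mRNAs by limma, edgeR and DESeq2, with 0 at an unadjusted p below 0.05, where limma called 0% of all genes and 6.08% had an unadjusted p below 0.05.

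The *Nrde2*Δ*200* and *Nrde2-D174R* mutants gave no call among the mRNAs or rRNAs. In *Nrde2*Δ*200* 0 of 7 mRNAs were called by limma, edgeR or DESeq2, where limma called 7.37% of all genes, and 1 mRNA had an unadjusted p below 0.05, where 29.9% of all genes did. That mRNA was *mt-Nd6*, at 2.94 and 3.49 normalised CPM against 4.54 and 6.29 (log2 fold change -0.70), both below the controls. In *Nrde2-D174R* 0 of 7 mRNAs were called by the same tools, where limma called 0.41% of all genes, with 2 mRNAs and both rRNAs at an unadjusted p below 0.05, where 17.5% of all genes were. Each of these 9 genes was higher in both *Nrde2-D174R* libraries than in both WT libraries, as were 27.6% of all genes tested, with a median log2 fold change of 0.49 over the mRNAs. *mt-Cytb* was at 473 and 433 normalised CPM against 295 and 311 (log2 fold change 0.58 ± 0.21, limma adjusted p = 0.17). *mt-Rnr1* was at 4062 and 2583 against 1889 and 802 (1.40, limma adjusted p = 0.139), with a spread between the libraries of each group that was larger than for any mRNA. Fitted on these 4 libraries alone, *mt-Nd4*, *mt-Nd5* and *mt-Cytb* were called, where 1.21% of all genes were called up in that fit.

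Degradation of CCDC174 left the members within the spread of the libraries. In *Ccdc174-dTAG* 0 of 7 mRNAs and 0 of 2 rRNAs were called by limma, edgeR or DESeq2, 0 of these 9 genes had an unadjusted p below 0.05, where 24.9% of all genes did, and limma called 5.57% of all genes. All 7 mRNAs overlapped between the groups, which were apart for 53.9% of all genes, with log2 fold changes from -0.21 (*mt-Nd1*, at 769 and 499 against 811 and 634 normalised CPM) to 0.24 (*mt-Nd6*, at 6.71 and 9.18 against 8.06 and 5.38). The interval of so small an experiment is wide. For *mt-Nd1* the standard error was 0.21 on the log2 scale, with the spread pooled over all 20 libraries of the fit and not taken from this experiment alone.

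CHX for 4 hours went with lower levels of the complex I mRNAs *mt-Nd1* and *mt-Nd2* in all 4 backgrounds. These were called down in each of them, and no mitochondrial mRNA was called up. The background of CHX was large, with 22.9 to 25% of all genes called down and 47.7 to 50.5% called in all. In *Ccdc174*-WT the 2 of 7 mRNAs called lay near the share called down. In both *Ccdc174* groups the calls were lost without a filter on low values. The comparisons share one fit over 16 libraries, so that normalised CPM differ slightly from those given above.

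In WT 3 of 7 mRNAs were called down, where 22.9% of all genes were called down and 47.7% in all. *mt-Nd1* was at 465 and 382 normalised CPM with CHX against 1033 and 618 without (log2 fold change -0.92 ± 0.22, limma adjusted p = 0.00185). *mt-Nd2* was at 46.6 and 36.8 against 101 and 63.4 (-0.94 ± 0.20, limma adjusted p = 0.00106), and *mt-Nd5* at 51.5 and 45.1 against 95.0 and 65.8 (-0.71 ± 0.13, limma adjusted p = 0.00029). All treated libraries were below all untreated ones for these genes, and the share of all genes doing so is not given. Of the untreated libraries replicate 1 was the higher. Only 1 mRNA was called without that replicate 1, or without replicate 2 of the treated WT libraries.

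In the libraries labelled *Nrde2*-KO the same 3 mRNAs were called, where 24.5% of all genes were called down and 49.4% in all, and the treated libraries were below the untreated ones for all 7, as for 40.5% of all genes. *mt-Nd1* was at 521 and 464 normalised CPM against 1071 and 998 (log2 fold change -1.07, limma adjusted p = 0.000535), *mt-Nd2* at 52.7 and 44.1 against 98.3 and 109 (-1.10, limma adjusted p = 0.000295) and *mt-Nd5* at 52.5 and 47.4 against 82.3 and 86.3 (-0.75, limma adjusted p = 0.000166). The untreated libraries were closer to each other here than in WT, and at least 3 mRNAs were called without any of the libraries.

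In *Ccdc174*-WT 2 mRNAs were called, *mt-Nd1* (439 and 355 normalised CPM against 860 and 672, log2 fold change -0.94) and *mt-Nd2* (42.5 and 33.3 against 75.2 and 59.4, -0.83), where 24.6% of all genes were called down and 49.6% in all. Neither was called without replicate 1 of the untreated or replicate 2 of the treated libraries, or on the CPM as deposited. In *Ccdc174-dTAG* 3 were called, where 25% were called down and 50.5% in all. These were *mt-Nd6* (3.99 and 3.35 against 7.14 and 9.88, -1.15), *mt-Nd1* (420 and 370 against 820 and 537, -0.75) and *mt-Nd2* (38.5 and 34.5 against 73.0 and 52.0, -0.75). Without replicate 2 of the treated libraries 0 were called, and without replicate 1 of either group 1 was.

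*mt-Co1*, *mt-Cytb* and *mt-Nd4* were lower in these comparisons by smaller amounts that were not called, with log2 fold changes between -0.74 (*mt-Cytb* in *Nrde2*-KO) and -0.19 (*mt-Nd4* in *Ccdc174-dTAG*). With the replicate number as a block, 6 mRNAs were called in WT, 6 in *Nrde2*-KO and 5 in each *Ccdc174* group. The share of all genes called with the block is not given, so these counts cannot be set against a background. The calls added by the block were *mt-Co1* in all 4 backgrounds, *mt-Cytb* in all but *Ccdc174-dTAG*, *mt-Nd4* in WT and *Nrde2*-KO, and *mt-Nd5* in both *Ccdc174* groups. The block also gave calls of 2 rRNAs in WT and 1 in *Ccdc174*-WT. The rRNAs were called in none of the 4 by limma, edgeR or DESeq2, with an unadjusted p below 0.05 for 2 in WT, 1 in *Nrde2*-KO, 2 in *Ccdc174*-WT and 0 in *Ccdc174-dTAG*, where 63.8, 65.6, 65.3 and 65.7% of all genes had one. The nuclear genes of the same complexes also fell. Of the 70 tested respiratory chain and ATP synthase genes, 66 to 67 were called down in each background, with median log2 fold changes of -0.50 to -0.58, and the mitoribosomal protein genes were called down in 44 to 52 of 80. *Cox7c*, a small subunit of cytochrome c oxidase, had log2 fold changes of -1.14 to -1.61. Whether the change of the knockout or of degradation differed with CHX was tested, and 0 of 7 mRNAs were called by limma, edgeR or DESeq2 for either, with 0 at an unadjusted p below 0.05, where 0.456% (*Nrde2*) and 0.244% (*Ccdc174*) of all genes were called and 15.1 and 9.61% had an unadjusted p below 0.05.

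**Figure D4:**
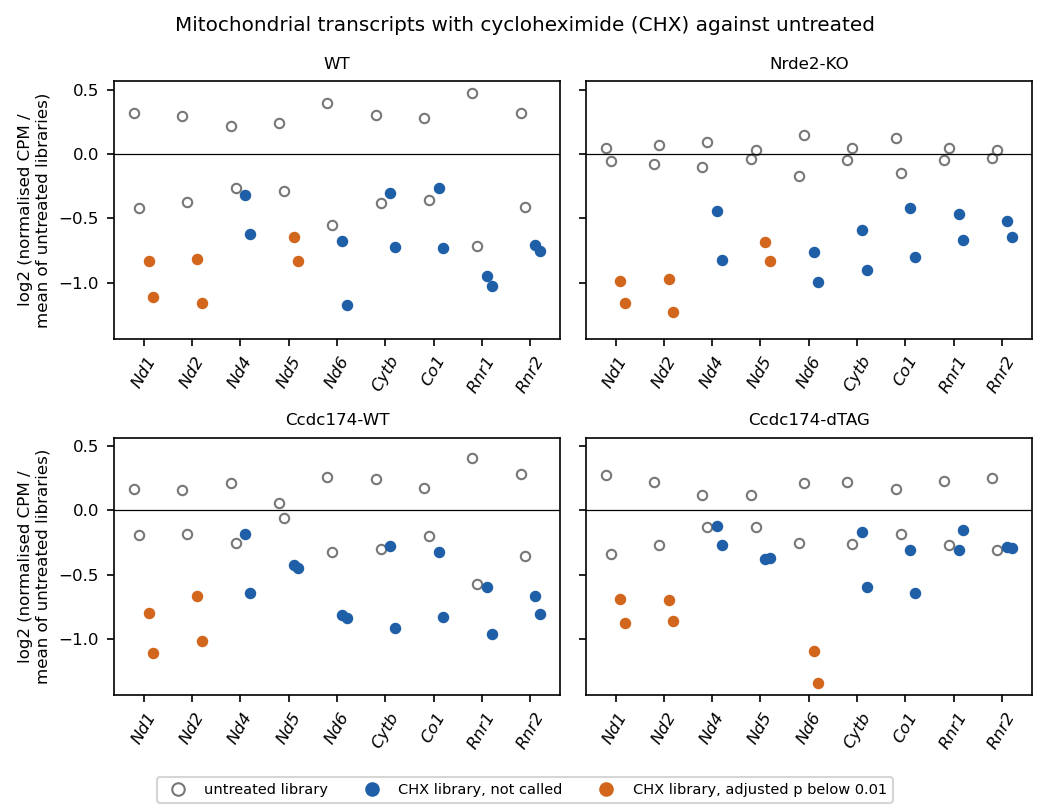
Each of the 4 panels shows the log2 of each CHX library's normalised CPM over the mean of the untreated libraries of the same background, for the 7 mRNAs and 2 rRNAs, with called genes in orange. *mt-Nd1* and *mt-Nd2* are called in every panel, at log2 fold changes from -0.75 to -1.10.

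Within the CHX libraries, 1 mRNA and both rRNAs were up-regulated in those labelled *Nrde2*-KO, where 10.8% of all genes were called up and 28.2% in all. *mt-Nd4* was at 51.7 and 39.7 normalised CPM against 30.0 and 24.2 (log2 fold change 0.74 ± 0.16, limma adjusted p = 0.00324). *mt-Rnr1* was at 698 and 605 against 477 and 453 (0.48, limma adjusted p = 0.00421) and *mt-Rnr2* at 6821 and 6247 against 5156 and 5012 (0.36, limma adjusted p = 0.00201). All groups were apart for these 3 genes, and the share of all genes doing so is not given. None of these calls held without replicate 2 of WT or without replicate 1 of *Nrde2*-KO. That of *mt-Rnr1* was also lost without replicate 1 of WT. With the replicate number as a block 4 mRNAs were called, with *mt-Co1*, *mt-Cytb* and *mt-Nd1* added, and the share of all genes with the block is not given. In *Ccdc174-dTAG* with CHX 0 of 7 mRNAs were called by limma, edgeR or DESeq2, with 0 at an unadjusted p below 0.05, where limma called 9.03% of all genes and 35.1% had an unadjusted p below 0.05. Of the rRNAs there, both had an unadjusted p below 0.05 and neither was called by limma. *mt-Rnr2* was at 6290 and 6254 against 5361 and 4895 (0.29, limma adjusted p = 0.0149), and edgeR and DESeq2 called it.

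In the Ribo-seq of *Nrde2*-KO, reads on 4 of the 7 mRNAs were fewer, reads on 5 of 13 tested tRNAs were more, and neither rRNA was called. The study's methods describe no isolation of ribosomes before the nuclease-resistant fragments were cut from a gel. Reads on a mitochondrial mRNA therefore need not all come from ribosomes, and mitochondrial translation was not tested. Of the 7 measurable mRNAs 5 encode complex I subunits, which include the 4 called ones (*mt-Nd1*, *mt-Nd2*, *mt-Nd5* and *mt-Nd6*) and *mt-Nd4*, which was not called. In the same cells the Ribo-seq reads of the nuclear gene *Nrde2* were at 2.33 and 3.24 normalised CPM against 12.2 and 14.2.

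For these 4 calls the background was 14.2% of all genes called down and 25.2% called in all. *mt-Nd1* was at 914 and 747 normalised CPM in *Nrde2*-KO against 1559 and 1033 in WT (log2 fold change -0.62 ± 0.13, limma adjusted p = 0.000994). *mt-Nd2* was at 522 and 419 against 919 and 591 (-0.65 ± 0.14, limma adjusted p = 0.000822), and *mt-Nd5* at 744 and 596 against 1288 and 853 (-0.65 ± 0.13, limma adjusted p = 0.000626). Both knockout libraries lay below both WT libraries, and WT replicate 1 was the highest of the 4. *mt-Nd6* had the same pattern, at 591 and 462 against 922 and 675 (-0.59 ± 0.12, limma adjusted p = 0.000535).

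The other 3 mRNAs overlapped between the groups, while for 34.2% of all genes both knockout libraries lay below both WT libraries. *mt-Co1* was at 807 and 773 against 1020 and 707 (log2 fold change -0.10), *mt-Nd4* at 436 and 348 against 597 and 384 (-0.30) and *mt-Cytb* at 1808 and 1396 against 2528 and 1733 (-0.40). How many mRNAs were called depended on the tool and on the library left out. edgeR also called 4, DESeq2 called 0 of 7, and the CPM as deposited gave 1. Without WT replicate 1 the 4 log2 fold changes shrank to between -0.34 and -0.39 and were still called, and without WT replicate 2 all 7 mRNAs were called.

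The tRNAs that rose carry methionine, proline, alanine, phenylalanine and valine. Their genes are printed below from the GRCm38 reference, 5' to 3' on the strand of each gene, because the tRNAs were the members that rose in Ribo-seq, and the anticodon is in capitals. *mt-Tm* lies directly before *mt-Nd2*, and *mt-Tv* lies between the rRNA genes. *mt-Tp* and *mt-Ta* are encoded on the strand of *mt-Nd6*:
mt-Tm, chrM:3845-3913, plus strand: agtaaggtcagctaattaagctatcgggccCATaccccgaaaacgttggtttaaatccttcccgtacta
mt-Tp, chrM:15356-15422, minus strand: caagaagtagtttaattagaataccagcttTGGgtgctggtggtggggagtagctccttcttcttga
mt-Ta, chrM:5018-5086, minus strand: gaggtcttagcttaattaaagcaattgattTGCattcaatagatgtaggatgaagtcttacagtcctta
mt-Tf, chrM:1-68, plus strand: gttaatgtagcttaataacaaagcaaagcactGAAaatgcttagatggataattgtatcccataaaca
mt-Tv, chrM:1025-1093, plus strand: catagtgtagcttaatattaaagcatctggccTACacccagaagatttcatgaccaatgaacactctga

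For calls up the background was 11% of all genes. *mt-Tm*, with the CAT anticodon shown above, was at 202 and 160 normalised CPM in *Nrde2*-KO against 79.9 and 68.1 in WT. Both knockout libraries lay far above both controls, and the log2 fold change was 1.28 ± 0.10 (limma adjusted p = 1.23e-08). *mt-Tp* was at 44.1 and 35.5 against 19.0 and 19.0 (1.05 ± 0.12, limma adjusted p = 1.13e-06), and *mt-Ta* at 13.3 and 16.2 against 7.67 and 9.17 (0.79 ± 0.17, limma adjusted p = 0.00109). The groups were apart for each of them, and the share of all genes with both knockout libraries higher is not given. *mt-Tf* was at 39.4 and 46.0 against 29.1 and 26.9 (0.60 ± 0.11, limma adjusted p = 0.0002), and *mt-Tv* at 47.1 and 41.3 against 31.3 and 29.8 (0.53 ± 0.10, limma adjusted p = 0.000482). DESeq2 called 3 of the 5, without *mt-Tv* and *mt-Ta*, and edgeR called 5 tRNAs. The call of *mt-Tv* was lost without *Nrde2*-KO replicate 1 and that of *mt-Ta* without replicate 2. Of the 35-base windows of *mt-Ta*, 48.6% had a nuclear copy, so its reads covered only part of the gene. For *mt-Tm*, *mt-Tp*, *mt-Tf* and *mt-Tv* this share was 0%.

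The other 8 tested tRNAs were not called. *mt-Ti*, the most abundant, was at 155 and 153 normalised CPM against 141 and 119 (log2 fold change 0.25, limma adjusted p = 0.0285). *mt-Te*, of which all 50-base windows have nuclear copies, had the only large value in the other direction, at 2.51 and 2.07 against 4.55 and 3.46 (-0.74, limma adjusted p = 0.0589). The rRNAs were called by none of limma, edgeR and DESeq2, with 0 at an unadjusted p below 0.05, where 44.7% of all genes were. Their groups overlapped, with *mt-Rnr1* at 28226 and 22931 against 28692 and 24749 (-0.07) and *mt-Rnr2* at 25810 and 20813 against 25799 and 24042 (-0.10). In Ribo-seq the ratio of *mt-Rnr2* to *mt-Rnr1* reads was 0.899 to 0.971, in fragments cut out of a gel just above a 35-nt marker after nuclease digestion. A read on a tRNA or rRNA in such a library is a fragment of that RNA and no footprint of translation.

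**Figure D5:**
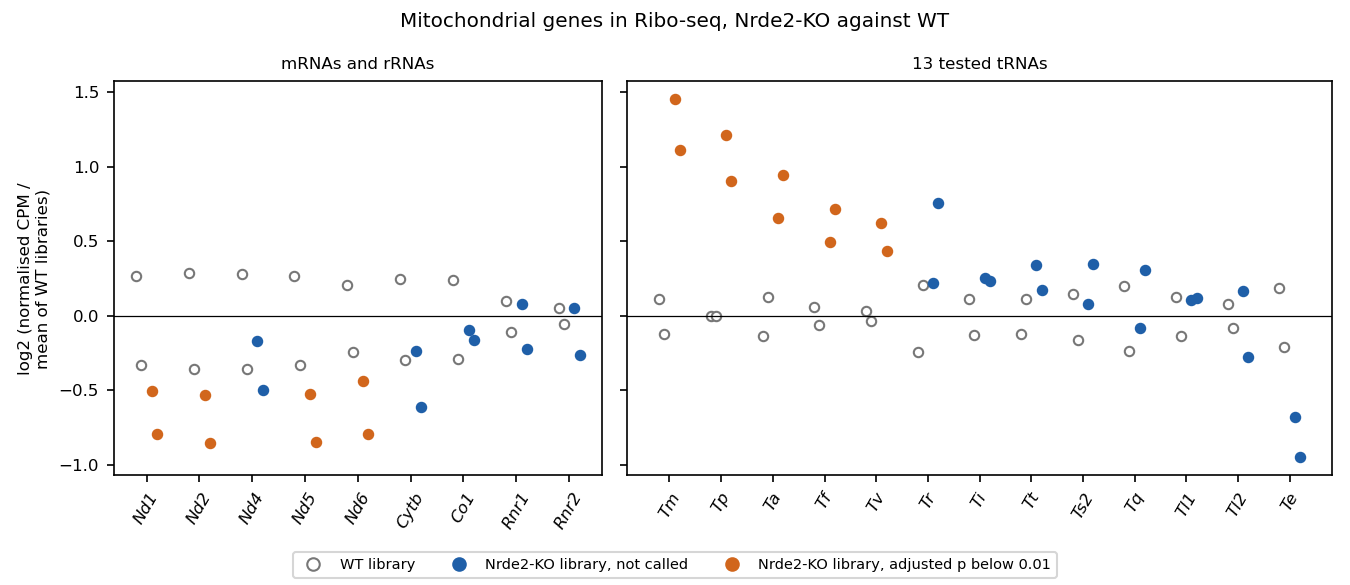
The left panel shows the log2 of each *Nrde2*-KO Ribo-seq library's normalised CPM over the WT mean for the 7 mRNAs and 2 rRNAs, and the right panel for the 13 tested tRNAs, with WT libraries as open circles and called genes in orange. The called mRNAs lie at log2 fold changes of -0.59 to -0.65, and *mt-Tm* is highest of the tRNAs at 1.28.

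Whether the Ribo-seq change differed from the RNA-seq change of the first experiment was tested in 1 model over both assays. None of the 7 mRNAs was called by limma, edgeR or DESeq2, with 4 at an unadjusted p below 0.05, where limma called 7.17% of all genes and 31.6% had an unadjusted p below 0.05. The median log2 difference of these mRNAs was -0.46. On simulated counts this test recovered 0% of genes changed by a log2 of 0.5 and 20.9% of those changed by 1. Missing calls at that size therefore cannot show that the changes were equal. *mt-Tm*, the only tRNA with enough RNA-seq reads to be tested, was called with a log2 difference of 1.44 ± 0.25 (limma adjusted p = 0.00183). Its RNA-seq level rested on 16 and 22 reads in the WT and 16 and 21 in the *Nrde2*-KO libraries, and the call was lost in edgeR (adjusted p = 0.0114) and without WT replicate 2 or *Nrde2*-KO replicate 1 of Ribo-seq, with adjusted p of 0.000579 to 0.0368 over the alternatives that tested it. It was not tested with a minimum mean of 1 CPM or without replicate 2 of WT or of *Nrde2*-KO in RNA-seq, where its level was too low. Nuclear respiratory chain and ATP synthase genes went the other way from the mitochondrial mRNAs in Ribo-seq, with 34 of 70 called up and 6 down (median log2 fold change 0.33). In the test of Ribo-seq against RNA-seq, 48 of the 70 were called with a larger change in Ribo-seq and 0 with a smaller one, where limma called 4.96% and 2.21% of all genes.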

How the data were processed

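The authors sequenced rRNA-depleted, strand-specific RNA-seq libraries (50-nt single reads), aligned them to mm10 with STAR 2.7.3a, counted uniquely mapping reads on the GENCODE M23 annotation with featureCounts and deposited CPM per gene. The total behind each CPM is not named in the sources used here. Ribo-seq reads were trimmed, collapsed for duplicates, mapped like the RNA-seq and deposited as CPM. The 16 BCLIP samples were not used here. A whole read count was recovered for 100% of the values (tolerance 0.1).

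Members were found with the GENCODE M21 annotation of GRCm38, which held 55154 of the 55335 identifiers. The members and all lists (nuclear respiratory chain and ATP synthase, mitoribosome, mitochondrial transcription and replication, RNA processing and decay, translation factors and stress response, and markers of cell types) were chosen with earlier results of these data known. Each library's CPM were scaled by its median ratio to the geometric mean of all libraries of the fit, a pseudocount of 0.25 was added, and log2 values of genes averaging 0.5 CPM or more were fitted by group with limma (3.58.1 in R 4.3.3). Fits covered 20 RNA-seq libraries without CHX (14889 genes), 8 with CHX (15476), 16 of the CHX experiments (15133), 4 Ribo-seq libraries (13857) and 8 libraries of both assays (12788). The 18 comparisons were adjusted over all genes of the fit. Genes were called at an adjusted p below 0.01, and the study's rule also asks for a log2 fold change beyond 1. Fold changes on this scale understate those of low genes. The named genes were all mRNAs, rRNAs and tRNAs called or highest or lowest of their class, the 3 largest changes each way per comparison, and at most 3 nuclear genes per list past the study's rule. Nuclear copies were found by exact search of every 50- and 35-base window on both strands of the RefSeq GRCm38 genome. A 0 was given a limit of 3 reads, and such limits cover counting error only. On simulated counts the fits recovered 97.0% of genes changed by a log2 of 1 for *Nrde2*-KO (14888 genes) and 58.2% for Ribo-seq (13835 genes), and 16.7% and 3.03% of genes changed by 0.5. Alternatives were other scalings, pseudocounts and filters, a replicate block, fits of the compared groups only, edgeR 4.0.16 and DESeq2 1.42.0 on the recovered reads, and leaving out each library. Python 3.11.15 with numpy 2.4.6, pandas 2.3.3, numba 0.67.0 and matplotlib 3.10.9 was used.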

Additional observations from a re-analysis of the deposited data

Results flagged for a closer look

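The changes in *Mtrex*-KO and *Nrde2*-KO of the first experiment, each against its own control, differed by the test of the difference itself (limma, adjusted over all genes). The log2 differences, positive where *Mtrex*-KO had the larger change, were 2.95 ± 0.66 for *mt-Rnr1* (limma adjusted p = 0.00161), 2.71 for *mt-Nd4*, 2.17 ± 0.49 for *mt-Rnr2* (limma adjusted p = 0.00152), 1.88 for *mt-Nd5*, 1.70 for *mt-Nd2*, 1.64 ± 0.30 for *mt-Cytb* (limma adjusted p = 0.000255) and 0.95 ± 0.27 for *mt-Co1* (limma adjusted p = 0.00797). Neither rRNA was called without WT replicate 1, without *Nrde2*-KO replicate 2 or without *Mtrex*-WT replicate 2.

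The change of *mt-Tm* in *Nrde2*-KO differed between Ribo-seq and RNA-seq by a log2 difference of 1.44 ± 0.25 (limma adjusted p = 0.00183).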

How the results depend on the processing

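No result changed direction once called. Of 2610 gene values recomputed under an alternative, 2444 kept their side of the threshold, 58 passed it newly and 108 lost the call. Without a filter on low values, the mRNAs called fell to 0 in the second *Nrde2*-KO experiment, in *Nrde2*-KO with CHX, for CHX in *Ccdc174*-WT and in *Ccdc174-dTAG*, and in Ribo-seq, to 3 for *Mtrex*-KO minus *Nrde2*-KO, and the tRNAs to 2 in Ribo-seq and 0 for Ribo-seq minus RNA-seq. The CPM as deposited gave 0 mRNAs for CHX in *Ccdc174*-WT, 1 in *Ccdc174-dTAG* and 1 in Ribo-seq, and scaling to reads in genes gave 1 and 1 for CHX in these *Ccdc174* groups. For *Mtrex*-KO, with 6 in the main fit, 5 were called on the CPM as deposited, with scaling to reads in genes and without a filter. Fits of the compared groups only gave 4 for *Mtrex*-KO, 3 for *Nrde2-D174R*, 3 for *Mtrex*-KO minus *Nrde2*-KO, and for CHX 7 in *Nrde2*-KO and 4 in *Ccdc174*-WT. DESeq2 gave 1 in the second *Nrde2*-KO experiment, 4 for CHX in *Ccdc174*-WT, and in Ribo-seq 0 mRNAs and 3 tRNAs, and edgeR gave 0 tRNAs for Ribo-seq minus RNA-seq. The members' median share of reads, 1.30% in RNA-seq and 9.03% in Ribo-seq, was 0.216% and 4.80% over genes with no shared window, and 5.77% of the authors' total in Ribo-seq.

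The labels do not say what same-numbered libraries share. The correlation of their deviations was 0.12 to 0.42 in most comparisons and -0.03 for *Nrde2*Δ*200* and for Ribo-seq, with only 2 numbers per group. Over the 4 groups of a CHX experiment it was 0.119 to 0.357 (*Nrde2*) and 0.189 to 0.373 (*Ccdc174*). With the replicate block, the mRNAs called were 4 in *Nrde2*-KO with CHX, 6 for CHX in WT and in *Nrde2*-KO, 5 in each *Ccdc174* group, 6 in Ribo-seq and 1 for Ribo-seq minus RNA-seq. The shares of all genes called with the block are not given, so a rise in these counts need not be particular to the mRNAs.

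Leaving out each library in turn, the mRNAs called were 5 to 6 for *Mtrex*-KO, 3 to 5 for *Mtrex*-KO minus *Nrde2*-KO, 0 to 2 for the second *Nrde2*-KO experiment, 0 to 2 for *Nrde2*-KO with CHX and 4 to 7 in Ribo-seq. For CHX they were 1 to 4 in WT, 3 to 4 in *Nrde2*-KO, 0 to 2 in *Ccdc174*-WT and 0 to 2 in *Ccdc174-dTAG*. The other comparisons stayed at 0 mRNAs, and the tRNAs called were 4 to 6 in Ribo-seq and 0 to 1 for Ribo-seq minus RNA-seq. The cause of these shifts was not tested. Depth limits *mt-Nd6* and the tRNAs in RNA-seq most, and the 5 mRNAs with no unique window have no level at any depth under unique mapping to this reference.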
